A study of Homo sapiens with 6 samples.

Results

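MCL1 was followed here at the level of its single array features in Hep3B cells, a human hepatoma line that lacks p53, at 6 hours after a UV dose of 10 J/m2, against untreated Hep3B cells. The members were all rows of the deposited table annotated to MCL1, namely 49 of 45220 features, and all 49 carried 1 RefSeq transcript accession. The gene had been chosen by its fall and its uneven features on these same arrays, so its log2 ratios and the departures of its features are given as a description, with no test. The study amplified total RNA of 3 biological replicates into labelled cRNA and hybridized it on 6 two-colour splicing-sensitive arrays. Each replicate was read once with the UV sample in Cy5 (direct) and once with the untreated sample in Cy5 (dye-swap). The labels give no other treatment or genotype. The model is 1 established cell line, 1 dose and 1 time. None of 11 hepatocyte and hepatoma marker genes was on the array and a ratio holds no level, so the identity of the cells was not checked.

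MCL1 encodes an antiapoptotic protein of the BCL2 family that holds the pore-forming protein BAK in check. Both its mRNA and its protein are short-lived, so the level of MCL1 follows transcription closely, and BH3-only proteins, NOXA above all, bind and neutralize it. Alternative splicing that skips an internal exon turns the long antiapoptotic form into a short proapoptotic one. The RefSeq table lists 3 transcripts for the gene, and because every feature was annotated to the same one, the annotation did not tell which exon, junction or isoform a feature reads. Features are therefore named by their number in the table.

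The log2 ratio of the gene, the mean over its features, was -1.24 ± 0.027 (SD, n = 3 replicates), 2.36-fold lower in UV-treated than in untreated cells. It was -1.33, -1.24 and -1.27 on the direct arrays of replicates 1, 2 and 3, and -1.19, -1.18 and -1.23 on the dye-swap arrays. All 6 arrays therefore lay within a narrow band far below 0. Among the 465 genes with 3 or more features that had a value, this was the lowest mean, followed by PRP4K, a splicing kinase (-1.07), and RBM7, an RNA-binding protein of the nuclear exosome targeting complex (-1.06). As the arrays were normalized to a median near 0, a change shared by all transcripts would not show in these ratios.

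Of the 49 features, 46 had both orientations in at least 2 replicates, 44 of them in all 3. All 46 were below 0 in every replicate, and the 44 complete features were below 0 on each of the 6 arrays. Over all 34301 named features with a value the median log2 ratio was 0.012. The gene was chosen on this contrast, so the counts below 0 are a description. Feature 2311 was empty on all arrays. Feature 40619 had a value on 1 array (-0.080). Feature 42550 was the exception to the fall, with 0.12 and 0.31 on direct arrays 2 and 3 and 0.45 on dye-swap array 1, and it was empty on the other arrays. Why some values are missing was not examined.

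The features did not fall alike. Their mean log2 ratios ran from -3.13 to -0.16, or from 8.76-fold to 1.12-fold lower, with a median of -1.33 and quartiles of -1.60 and -0.80. Among 46 features 42 were lower past 1.3-fold, against a share of 11.7% of all 34301 named features with a value, and 30 were lower past 2-fold, against 1.72% of all features. Nothing is read from these shares, since the gene was chosen on this contrast. The SD among features was 0.67, whereas the SD of 1 feature over the 3 replicates had a median of 0.049 and was at most 0.13. The level of each feature was thus nearly the same in each replicate, and the correlation between replicates over the 44 complete features was 0.995 at its lowest. Features of 1 gene share the same RNA and arrays, so this is agreement of measurement and not of independent transcripts.

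**Figure D1:**
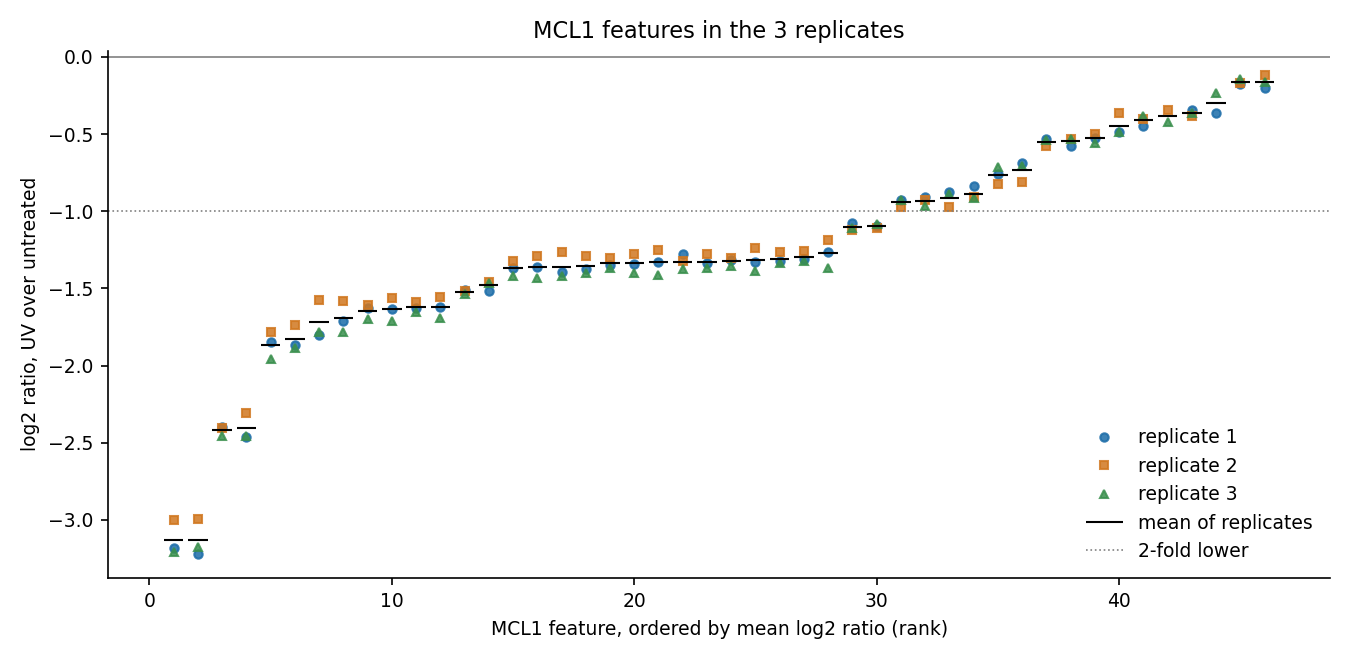
Log2 ratio (UV over untreated) of 46 MCL1 features in replicates 1, 2 and 3, each averaged over both dye orientations, with the features ordered by their mean (short black lines) on the x axis and 2-fold lower marked by the dotted line. The points run from 2 features near -3.13 to 2 features near -0.16, and the replicates of a feature lie close together.

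The ordered features were described in steps. Cut wherever neighbours in the order were more than 0.1 apart, a limit chosen after the values were seen, the 46 features fell into 11 steps of 2 to 14 features, and no feature stood alone. Of the 45 gaps between neighbours 11 were wider than the larger SD of the 2 features beside them. These were 9 of the 10 gaps between steps and 2 gaps inside a step. As features share their arrays, this SD holds shifts common to neighbours and does not tell whether 2 neighbours differ. Feature 1538 was below feature 44665 in all 3 replicates, although their gap of 0.11 was narrower than the larger SD. Of the 10 gaps between steps 8 measured only 0.10 to 0.185, so the steps are an aid to description and depend on the limit.

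The bottom step held features 28279 and 11262. Feature 28279 was at -3.15, -2.89 and -3.04 on direct arrays 1, 2 and 3 and at -3.22, -3.11 and -3.38 on the dye-swap arrays. Feature 11262 was at -3.16, -2.92 and -3.04 on direct arrays and at -3.28, -3.07 and -3.31 on the dye-swap arrays. The 2 features thus followed each other from array to array (root mean square difference 0.043), and they were the lowest 2 of all 34301 named features, at -3.13 ± 0.12 and -3.13 ± 0.12 (SD, n = 3). The widest gap, 0.71, separated them from the next step.

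The second step again held 2 features, 37497 (-2.40, -2.41 and -2.46 in replicates 1, 2 and 3) and 4937 (-2.46, -2.30 and -2.46), which ranked 7 and 8 among all named features. A gap of 0.54 followed. Features 8209 (-1.85, -1.78 and -1.96) and 1538 (-1.86, -1.74 and -1.88) formed the third step. In all, 12 of the 100 lowest named features in the table were MCL1 features, which made up 46 of the 34301 named features with a value. Nothing is read from this count, since the gene was chosen on this contrast.

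The middle of the order held most features. A step of 6 ran from -1.72 (feature 44665) to -1.62 (feature 22772), and 2 features followed, 35094 at -1.52 ± 0.013 and 9853 at -1.48 ± 0.030 (SD, n = 3). The largest step comprised 14 features between -1.37 (feature 12180) and -1.27 (feature 34969) (range 0.098), with replicate SDs from 0.026 to 0.090. A pair at -1.10 (features 40080 and 16419) closed the part of the gene that fell past 2-fold.

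Above 2-fold came 4 features between -0.94 and -0.89, 2 features at -0.77 and -0.73 (15245 and 11977), a step of 8 between -0.55 and -0.30, and a last pair. In the step of 8, features 31359, 29121 and 3913 lay together at -0.55, -0.55 and -0.53, with values from -0.58 to -0.50 in the single replicates. The last pair hardly moved: feature 18792 was at -0.18, -0.17 and -0.15 and feature 13317 at -0.20, -0.12 and -0.17 in replicates 1, 2 and 3. Both stayed below 0 on all 6 arrays.

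In 37 of the 44 complete features the nearest other MCL1 feature lay within a root mean square difference of 0.1 over the 6 arrays. The median of that nearest difference was 0.054 in MCL1, against a median of 0.059 over 464 genes, and MCL1 ranked 175 among them from the smallest. Whether neighbours in a step are copies of 1 probe or read the same exon was not tested, since probe sequences were not used here.

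The place of replicate 2 differed between levels. Of the 28 features below -1.2, replicate 2 was the least negative in 25, and of the 8 features between -1.2 and -0.7 it was the most negative in 6. Of the 8 complete features above -0.7 it was the most negative in 2 and the least negative in 3. These bounds were chosen after the values were seen. The slope of replicate 2 on the mean of the other two over the complete features was 0.92, against 1.02 for replicate 1 and 1.05 for replicate 3. Both arrays of replicate 2 also had the narrowest ratios over the whole table (SD 0.316 and 0.322, against 0.352 to 0.375 on the other arrays), and the part of this in the MCL1 values was not tested.

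Each feature was then set against the mean of the other MCL1 features, a measure taken for this description. A departure shows that features changed unequally, not which of them moved. Departures ran from -1.91 to 1.13 on the log2 scale. Of 46 features 6 lay below the rest of the gene past 1.4-fold with the same sign in every replicate, against 2.06% of 33990 features of all genes with 3 or more features, and 12 lay above it, against 1.95%. The remaining 28 features were within 1.4-fold of the rest. These shares too come from the contrast the gene was chosen on.

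The 6 features below the rest were those of the bottom 3 steps. Features 28279 and 11262 departed by -1.91 ± 0.090 and -1.91 ± 0.096 (SD, n = 3), 3.76-fold and 3.75-fold, and features 37497 and 4937 by -1.18 ± 0.032 and -1.17 ± 0.063. Features 8209 (-0.61) and 1538 (-0.58) were past the limit by a smaller margin, and the next in order, 44665, was just inside it at -0.47. Only the first 4 departed by more than 2-fold.

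The 12 features above the rest were all below 0 themselves, and 4 of them had changed by less than 1.3-fold. Feature 13317 departed by 1.13 ± 0.024 and feature 18792 by 1.13 ± 0.036 (SD, n = 3), both 2.2-fold. Feature 5562 departed by 1.0 ± 0.096, from replicates 1 and 3 alone. Features 19036 (0.92) and 42849 (0.89, replicates 2 and 3) came next, and feature 15245, at 0.51, was the last past the limit, with feature 1044 just inside it at 0.39.

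**Figure D2:**
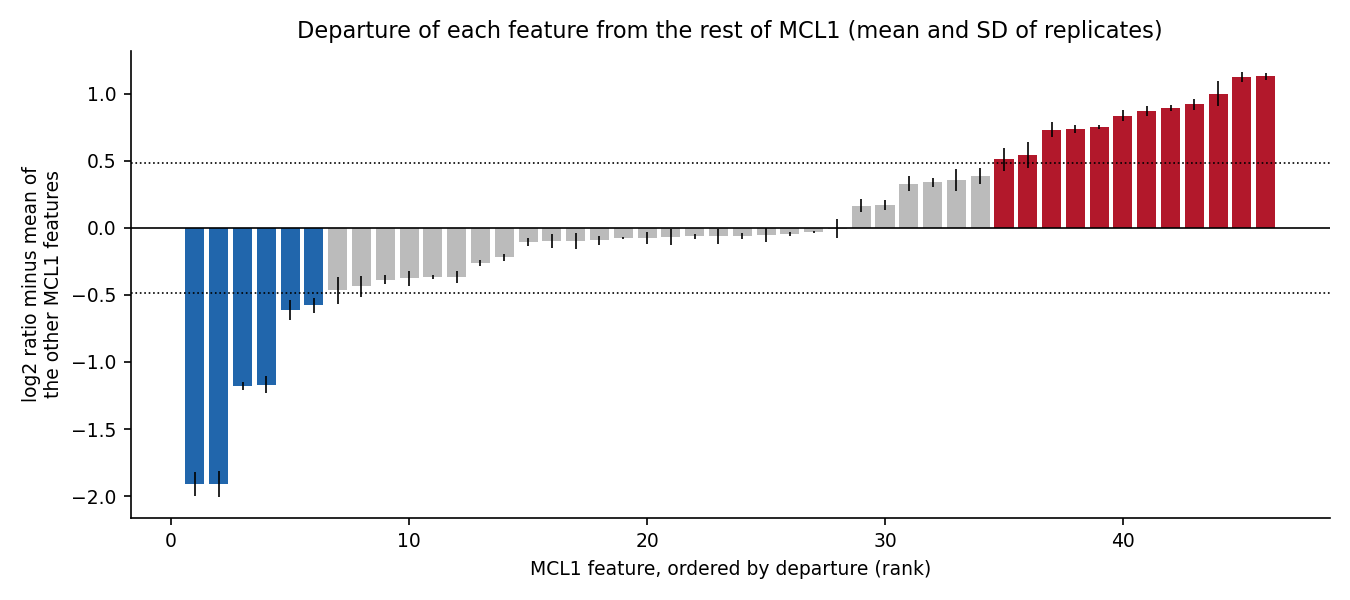
Departure of each of 46 MCL1 features, as its log2 ratio minus the mean of the other MCL1 features (bars, mean of replicates, error bars SD), with 1.4-fold marked by dotted lines and features past it in blue (6 below the rest) and red (12 above). The 2 leftmost bars, near -1.91, reach farthest from the rest of the gene.

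Genes were compared with MCL1 by the root mean square distance of their mean log2 ratios over the 6 arrays. Of genes with 3 or more features, PRP4K (distance 0.187), RBM7 (0.199), the stress-responsive polo-like kinase PLK2 (0.327), the RAS exchange factor SOS1 (0.435) and the NF-kB inhibitor NFKBIA (0.50) were nearest. Their log2 ratios were less negative than that of MCL1 on every array. The nearest, PRP4K, was at -1.13, -0.94 and -1.08 on direct arrays 1, 2 and 3 and at -1.16, -0.98 and -1.16 on the dye-swap arrays. With any number of features, single-feature genes came nearest, namely RBM4B (0.128), WWP1 (0.135), ARID5A (0.158), ZNF124 (0.163) and PPWD1 (0.167), with log2 ratios from -1.36 to -1.12. A like ratio on 6 arrays is a likeness of size only.

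The uneven fall of MCL1 had counterparts. The SD of 0.67 among its features ranked 4 among 465 genes, below PRP4K (0.79), the death receptor adaptor FADD (0.70) and the mitotic kinase AURKA (0.70), and the median gene had an SD of 0.13. Its range of 2.97 between the highest and the lowest feature ranked 2. In PRP4K the features ran from -2.65 to 0.14, and in RBM7 from -2.25 to -0.0083, so that all 3 genes held both strongly lower and nearly unmoved features. Over the 465 genes, the size of the gene ratio and the SD among features correlated at 0.74 (Pearson) and 0.54 (Spearman). The 2 measures come from the same features and arrays, and no test was made.

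**Figure D3:**
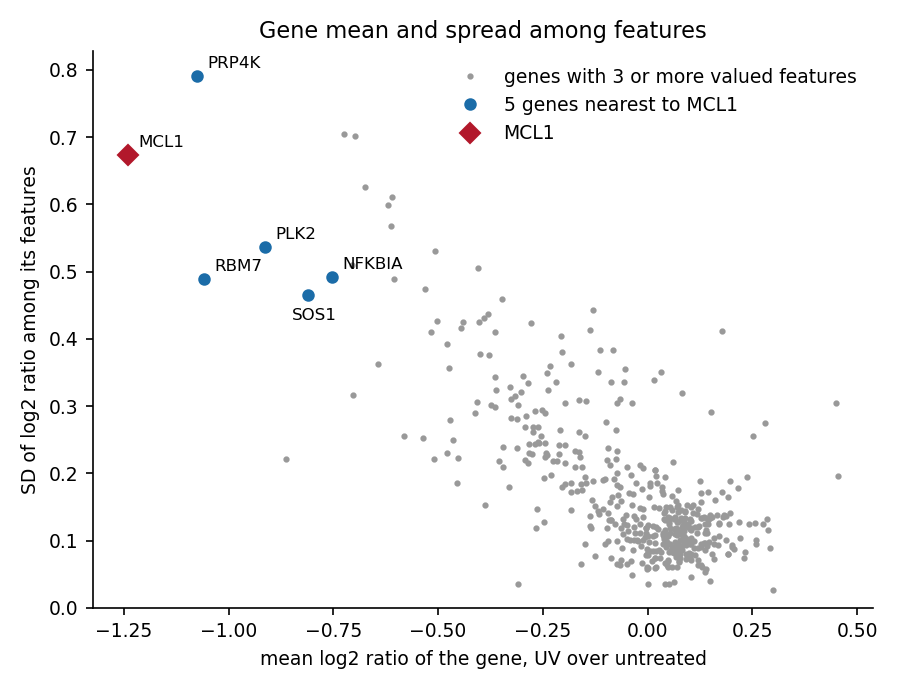
Mean log2 ratio (UV over untreated, x axis) and SD of the log2 ratio among the features (y axis) of 465 genes with 3 or more features, with MCL1 as a red diamond and the 5 nearest genes in blue. MCL1 lies farthest to the left at -1.24, and its SD of 0.67 is exceeded by that of PRP4K and 2 other genes.

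MCL1 acts against its own relatives, so the other BCL2 family genes were read on the same arrays. Of a list of 23 genes 12 were on the array and 11 were tested, BCL2A1 having both orientations in only 1 replicate. The list, called the BCL2 family here, also holds MOAP1, which encodes a BAX-binding protein outside the family. The counts include it among the rises. By limma 4 fell and 5 rose, 36.4% and 45.5%, against 41.4% lower and 30.3% higher of all 775 genes tested. The median log2 ratio of the 11 genes was 0.071, against -0.027 over all genes. The antiapoptotic genes other than MCL1 had mean log2 ratios between -0.30 and 0.16. BCL2L1, which encodes BCL-XL, had -0.21, -0.40 and -0.29 in replicates 1, 2 and 3 (mean -0.30, SE 0.043, adjusted p = 0.00525, 76 features), BCL2 had 0.17, 0.12 and 0.18 (0.16, SE 0.021, adjusted p = 0.00393) and BCL2L2, which encodes BCL-w, had 0.11, 0.029 and 0.080 (0.071, SE 0.023, adjusted p = 0.0484).

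The BH3-only genes moved both ways. PMAIP1, which encodes the MCL1 antagonist NOXA, rose in each replicate, with log2 ratios of 1.04, 0.93 and 1.01 (mean 0.99, SE 0.028, adjusted p = 0.000109, 1 feature), and lay 2.14 to 2.29 above MCL1 in the same replicate on the log2 scale. BBC3, which encodes PUMA, fell by 1.21 (-1.31, -1.16 and -1.16, SE 0.040, adjusted p = 0.000142, 1 feature). BID fell by 0.19 (SE 0.034), and BAD rose by 0.12 (SE 0.026).

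Of the effectors, BAK1, which encodes the BAK protein that MCL1 holds, fell by 0.14 (SE 0.019, adjusted p = 0.00485, 1 feature), and BAX had 0.023, 0.25 and 0.20 in replicates 1, 2 and 3 (mean 0.16, SE 0.051, adjusted p = 0.0512), which passed without replicate 1 (0.23, adjusted p = 0.00702). The BAX-binding gene MOAP1 rose by 0.20 (SE 0.029, 1 feature) but was at -0.087 on the dye-swap arrays alone, and BCL2L14 was at 0.017 (adjusted p = 0.396). Without replicate 3, 2 family genes fell and 2 rose, and the calls of BCL2, BCL2L2, BAK1, BID and BAD were lost. Over all genes 30.5% were then called lower and 9.86% higher by limma. BCL2L2 and BAD also lost their calls without replicate 1 (adjusted p = 0.281 and 0.0912), as did BCL2L2, BAD and BAK1 on dye-swap arrays alone (0.0867, 0.136 and 0.0580) and BCL2L2 on direct arrays alone (0.0597), by the median of features (0.0606) and with a robust prior (0.0511). Apart from PMAIP1 and BBC3, the tested family genes had means between -0.30 and 0.20.

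**Figure D4:**
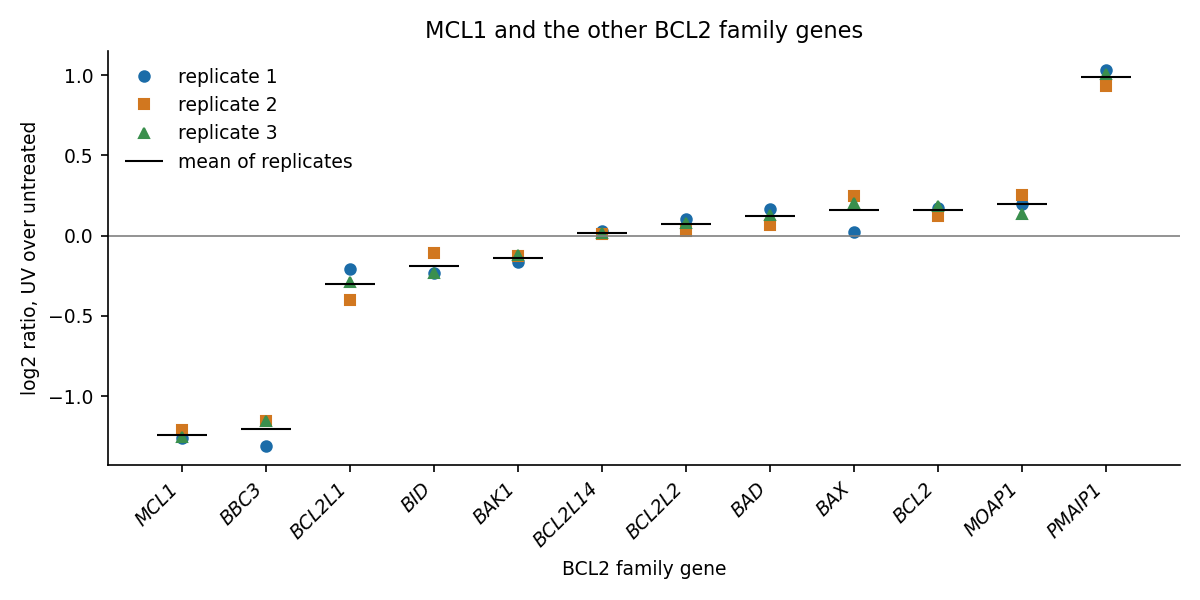
Log2 ratio (UV over untreated) of MCL1 and the 11 tested genes of the BCL2 family list, MOAP1 included, in replicates 1, 2 and 3 (points). Black lines are the mean of replicates, and a gene with several features is shown by the mean over them. MCL1 and BBC3 lie near -1.2, PMAIP1 near 1, and the other genes within 0.40 of 0.

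Genes that act on MCL1 or on short-lived mRNAs were taken from 4 lists, of protein turnover, kinases, transcription factors, and splicing and stability factors. Of 59 list genes 37 were tested by limma, of which 20 fell and 7 rose (54.1% and 18.9%, against 41.4% and 30.3% of all genes). The rises numbered 4 without replicate 1, 11 without replicate 2 and 3 without replicate 3, while 15.6%, 35.9% and 9.86% of all genes rose under the same 3 settings. As the lists were made with results of these arrays known, no more than the counts is read from them.

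Of 9 kinases and cyclins 6 fell and 2 rose (66.7% and 22.2%, against 41.4% and 30.3% of all genes). MAPK8, counted as a fall, was at -0.22 on direct and 0.089 on dye-swap arrays. CDK2, counted as a rise, was at -0.037 on direct and 0.25 on dye-swap arrays. CCNT1, the cyclin T1 partner of CDK9 in the elongation factor P-TEFb, on which short-lived mRNAs such as that of MCL1 depend, was lowest, with -1.11, -1.05 and -1.08 in replicates 1, 2 and 3 (mean -1.08, SE 0.020, adjusted p = 5.85e-05, 1 feature). CDK9 itself was at -0.073 (SE 0.020, adjusted p = 0.0321, 85 features), with -0.015 on direct and -0.13 on dye-swap arrays. The largest rise was that of the ERK1 gene MAPK3 (0.19, SE 0.018). Of 10 transcription factors 5 fell and 1 rose (50% and 10%, against 41.4% and 30.3% of all genes). MYC was lowest (-0.70, -0.71 and -0.70, SE 0.016). ELK1, an ERK target, was the one that rose (0.078, SE 0.024, adjusted p = 0.0450), a call lost without replicate 1 or replicate 3.

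Of 17 splicing and stability factors 9 fell and 3 rose (52.9% and 17.6%, against 41.4% and 30.3% of all genes). ELAVL1, counted as a fall, was at 0.0049 on direct and -0.17 on dye-swap arrays. SRSF1, an SR protein known to act on MCL1 splicing, fell most, with -0.47, -0.34 and -0.52 in replicates 1, 2 and 3 (mean -0.45, SE 0.042, adjusted p = 0.00166, 53 features), and SF3B4, a U2 snRNP protein, rose most (0.50, 0.24 and 0.43, mean 0.39, SE 0.058, adjusted p = 0.00613, 1 feature), a call lost without replicate 3 (adjusted p = 0.0530). In the turnover list 1 of 12 genes was on the array, the F-box protein gene SKP2, which rose by 0.26 (SE 0.017). Of 12 genes listed as fibroblast, endothelial or blood markers 3 were measured and all rose (against 30.3% of all genes), FN1 by 0.24, CD14 by 0.25 and KDR by 0.071. Whether Hep3B cells express these genes themselves was not checked. A ratio holds no level, so the rises do not tell which cells were present.

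The dye orientation is a measure that the choice of MCL1 did not use, and it was tested. The half-difference of direct and dye-swap log2 ratio in each replicate is 0 where both orientations give the same ratio. For the mean of the gene it was -0.039 (SE 0.015, n = 3) and did not pass by limma (adjusted p = 0.104), whereas 402 of 775 genes did. Of 46 features 18 passed (39.1%), against 48.6% of 34301 features. Of these 18, 13 were more negative on direct arrays and 5 on dye-swap arrays, a split not counted over all features. Without replicate 1 the number that passed was 11 of 45, against 43% of all features. Without replicate 2 or replicate 3 it was 0 by limma, as for all features in the table. At an unadjusted p under 0.05 were 10 of 45 MCL1 features without replicate 2 and 12 of 44 without replicate 3. The share of all features at that p was not counted, so nothing is read from these.

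The sign of the half-difference varied with the level of the feature. The bounds of -1.2 and -0.7 were chosen after the values were seen. The share of all features lower on the direct arrays was not counted at any level. No more than the counts is therefore read from these signs. Between -2 and -1.2, 21 of 24 features were lower on the direct arrays. Features 8209 and 1538 were lower on the direct arrays (-2.01 and -2.0) than on the dye-swap arrays (-1.71 and -1.66). Features 35094 (-1.71 against -1.33) and 9853 (-1.76 against -1.2) showed the same, and 9853 had the largest half-difference (-0.28, SE 0.021, adjusted p = 0.00150). In the step of 8, features 42849, 20240 and 25873 were again lower on the direct arrays, with half-differences of -0.26, -0.19 and -0.15. All 8 features between -1.2 and -0.7 had the opposite sign, 3 of them called, and features 28279 and 11262 were lower on the dye-swap arrays by a half-difference of 0.11 and 0.090. The half-difference of feature 37497 was 0.0050, that of feature 3913 -0.0067 and that of feature 36313 -0.010, and none of these passed.

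The distance between the 2 orientations is 2 times the half-difference. For feature 9853 (-1.76 on direct and -1.2 on dye-swap arrays) it was wider than the gap of 0.54 under the third step. It was thus wider than every gap between steps except that of 0.71. The median size of the half-difference was 0.052 in MCL1, against 0.090 over all features, and over the 46 features the direct and dye-swap means correlated at 0.96 (Pearson) and 0.91 (Spearman), as a description of features that share their arrays. The bottom 2 steps lay below all other features in both orientations, while near the top the orientation moved a feature by as much as its own ratio. Feature 42849 was at -0.65 on direct arrays, against -0.12 on dye-swap arrays.

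**Figure D5:**
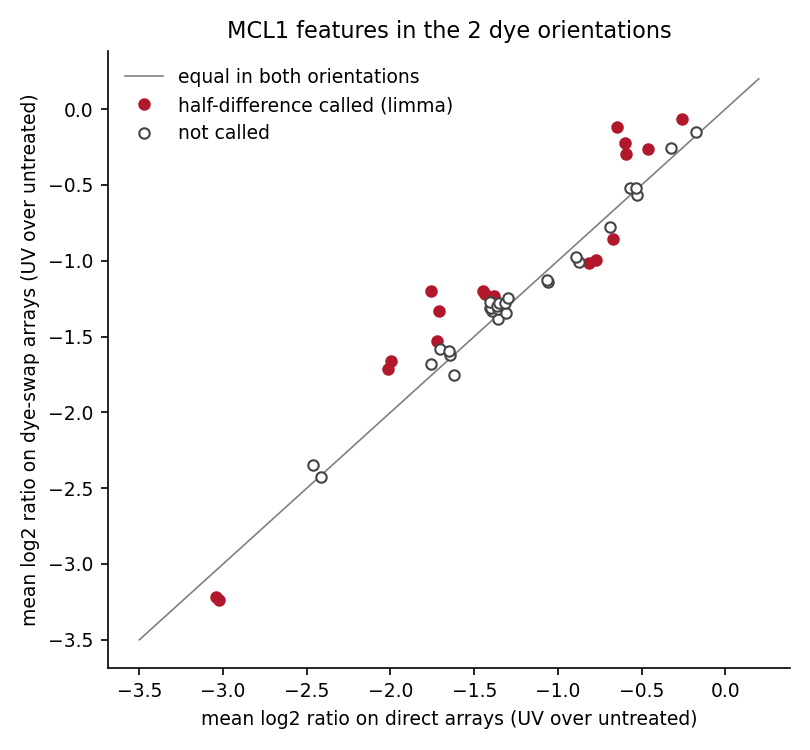
Mean log2 ratio (UV over untreated) of 46 MCL1 features on direct (x axis) and dye-swap arrays (y axis), with filled points for features whose half-difference was called by limma and open points for the others. The points follow the line of equality, and 13 of the 18 filled points lie above it, where the direct arrays gave the lower ratio.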

How the data were processed

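Labelled cRNA amplified from total RNA of UV-treated and untreated Hep3B cells was compared on 6 two-colour arrays. There were 3 biological replicates with both dye orientations. The authors corrected background with normexp and normalized by LOWESS, and the deposited values were log2 ratios with 1 column per array, with medians from -0.010 to 0.010 and with 15.1% to 19.2% of cells empty. Direct and dye-swap columns correlated positively (0.54 to 0.66), so the sign of the dye-swap columns was left as deposited. All ratios were read as UV over untreated, which rests on the dyes in the labels. Columns of the same orientation correlated more closely, at 0.84 at the lowest. Scanner signal was not used here, so brightness and background were not tested. The number of arrays limits the precision.

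Feature names came from the platform annotation and were updated through RefSeq (GRCh38.p14), and 49 features matched MCL1 by symbol and accession. No coordinates are printed, because no source names the genome build of the array. Orientations were averaged per replicate, both being required, with at least 2 replicates. Gene values were means over features on each array. Same-numbered arrays come from 1 replicate by the labels, and their deviations from the orientation means correlated at -0.0039, 0.45 and 0.10, while direct array 1 and dye-swap array 3 correlated at 0.42. The pairing therefore rests on the labels and was not borne out by these correlations in replicate 1. Nor was it in replicate 3, whose dye-swap array correlated more with direct array 1 than with direct array 3. Replicate values, their SDs and the half-differences use this pairing.

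Tests used limma 3.58.1 (R 4.3.3), with an intercept alone, two-sided, over all 775 genes or 34301 features with Benjamini-Hochberg adjustment and a threshold of 0.05. SEs are from limma and leave out any dye effect shared by replicates. Procedures were tested on simulated data. MCL1 and the gene lists were chosen with earlier results of these data known. Named features were the 5 lowest and highest by ratio and departure, and the 5 largest and 3 smallest half-differences. Named genes were the 5 nearest to MCL1, the measured BCL2 family, and the largest called fall and rise of each regulator list. Features and genes outside this rule (among them those closing each step, CDK9, MAPK8, CDK2, ELAVL1, FADD, AURKA, FN1, CD14 and KDR) were chosen after their values were seen. Alternatives covered orientation, replicates left out, scaling, missing values, the replicate block, the gene summary, the reference and fold of the departure, the threshold and the prior.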

Additional observations from a re-analysis of the deposited data

Results flagged for a closer look

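Results are listed here because the direct and dye-swap arrays gave different ratios by limma on the half-difference. Among MCL1 features 18 did so (39.1%, against 48.6% of all features). The largest included feature 9853 at -0.28, 42849 at -0.26, 35094 at -0.19, 20240 at -0.19 and 1538 at -0.17, each lower on the direct arrays. The BCL2 family list and the largest called falls and rises of the regulator lists were also read. Of these, BBC3 (-0.34), CCNT1 (-0.21), PMAIP1 (-0.12) and BAK1 (-0.073) had lower log2 ratios on the direct arrays. MAPK3 (0.042), BAD (0.063) and MOAP1 (0.28) had higher ones. Half-differences of the other named genes, MCL1 aside, were not listed. BBC3 was at -1.55 on direct arrays and -0.86 on dye-swap arrays, and CCNT1 at -1.29 and -0.87, so both were below 0 in each orientation.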

How the results depend on the processing

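The log2 ratio of MCL1 stayed between -1.39 and -1.09 under every alternative run. It was -1.28 on direct arrays alone and -1.2 on dye-swap arrays alone, -1.29 over features valued on all arrays, -1.31 by the median of features and -1.195 by their trimmed mean. Without the 4 lowest features it was -1.09, and with the steps weighted equally -1.39, both alternatives chosen after seeing the data. Leaving out 1 replicate gave -1.26 to -1.23. The count above the rest of the gene was 3 at a fold of 2. In the BCL2 family, falls numbered 1 with a fold over 1.3 as well and 2 to 4 with 1 replicate left out. Rises numbered 2 on the dye-swap arrays, 3 at an adjusted p of 0.01, 1 with the fold and 2 to 5 with 1 replicate left out. Regulators fell in 8 cases with the fold. They rose in 4 at an adjusted p of 0.01, in 1 with the fold and in 3 to 11 with 1 replicate left out. Of all genes tested by limma, 18.8% fell and 2.06% rose with the fold, and 16.3% rose at an adjusted p of 0.01. On the dye-swap arrays 27% of all genes rose. With 1 replicate left out 30.5% to 47.6% of all genes fell and 9.86% to 35.9% rose. Features called for orientation numbered 6 of 46 at an adjusted p of 0.01 (25.5% of all features). With 1 replicate left out they numbered 0 to 11 (0% to 43% of all features).

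Most regulators were not followed singly. Among the features and genes that were, signs turned for MOAP1 on the dye-swap arrays (-0.087) and for 3 uncalled half-differences near 0. With 1 replicate left out these ran from -0.030 to 0.015 (36313), from -0.053 to 0.018 (3913) and from -0.010 to 0.030 (37497), and with centred arrays 37497 was at -0.0017. With no replicate block 16 features were called for orientation (46.4% of all features). In that setting 4 BCL2 family genes fell and 5 rose (38% and 24.6% of all genes). With the replicate block as a random effect 4 fell and 6 rose (43.1% and 31.4% of all genes), the added rise being BAX. MOAP1 lost its call with no replicate block (adjusted p = 0.174), and ELK1 with the block as a random effect (adjusted p = 0.0584). The cause of these changes was not tested.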
